A study of Mus musculus with 16 samples.

Results

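The small leucine-rich proteoglycans are short secreted core proteins, built of leucine-rich repeats, that sit on collagen fibrils. Members of the family set fibril diameter and spacing, and several bind growth factors such as TGF-beta. Decorin and biglycan usually carry chondroitin or dermatan sulfate chains, while lumican and fibromodulin carry keratan sulfate. Matrix Gla protein, encoded by Mgp, is a small secreted protein that depends on vitamin K for its Gla residues, keeps soft tissue from calcifying and binds bone morphogenetic proteins. All are typical products of fibroblasts and related stromal cells. The data described here are the transcript levels of 8 such genes, Dcn, Bgn, Aspn, Lum, Fmod, Prelp, Ogn and Mgp, in cultured mouse germline stem cells grown on mouse embryonic fibroblast feeders. The genes were picked by symbol from a table of 21924 protein-coding genes, and they were chosen on measured values, because results of these libraries were known when the set was made. All 8 were in the table, and all 8 were among the 14841 genes that reached 1 CPM (reads per 1000000 reads on the listed genes) in at least 2 libraries.

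The study asked how germline stem cells, the cultured counterpart of spermatogonial stem cells, respond to low oxygen. There were 16 libraries in 8 groups of 2. Cells of strain DBA/2, wild type, were kept at 20% or 1% oxygen. Cells of the Hif1a line, on a mixed 129 and C57BL/6 background, were sampled as wild type and as KO at both oxygen levels, and the KO cells were given the Cre adenovirus AxCANCre on the same day that low oxygen began. Cells titled Top1mt, on C57BL/6, were sampled as wild type and KO at 1% oxygen only. Both are called the Top1mt line here, after the sample titles. The library names carry "B6" for the wild type and "Top1mtKO" for the KO. Whether these cultures were derived together is not given, so genotype and derivation cannot be told apart. All cultures received GDNF and FGF2 on feeders, and low oxygen came from gassed plastic bags. The series text gives 2 days at 1% oxygen, but names of the Hif1a libraries at 1% carry "6d", whose meaning is not given, and those of the Top1mt libraries "2d". Numbers in the library names also part the oxygen levels within the DBA/2 and Hif1a lines, so that time, library set and oxygen cannot be told apart there. No source used here states if a control virus was given to wild type cells. Nothing says that the 2 libraries of a group came from separate cultures, so p-values measure only the spread between these libraries.

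Depth ran from 11942104 to 25659895 reads on the listed genes, which makes 1 read worth 0.0390 to 0.0837 CPM. The least-read member in any library was Fmod, with 67 reads. Hif1a transcript was not lower in the libraries labelled Hif1a KO: its log2 fold change against wild type was 0.26 ± 0.06 at 20% oxygen and 1.27 ± 0.06 at 1%, so those groups are named by their label throughout. A transcript count does not show whether a deleted exon was lost. Top1mt transcript fell by 1.60 ± 0.07 on the log2 scale in its KO (limma, adjusted p = 1.5e-12). Germ cell markers, a list of 16 genes such as Ddx4, Dazl and Zbtb16, summed to 1926 to 5925 CPM, and 26 fibroblast markers, such as collagen genes, Pdgfra and Thy1, summed to 8163 to 70046 CPM. The fibroblast sum was 8213 to 10319 CPM in DBA/2 at 20% and 8163 to 9094 at 1%. In Hif1a wild type it was 12995 to 14054 at 20% and 31410 to 39872 at 1%, and in the libraries labelled Hif1a KO 18421 to 21719 and 68188 to 70046. Top1mt wild type had 25905 to 25955 CPM and Top1mt KO 48006 to 48711. Leukocyte markers summed to at most 43.2 CPM, endothelial markers to at most 65.3 CPM, and 10 markers of testis somatic cells to 126 to 397 CPM. Most of the last sum was Inhba (84.5 to 341 CPM), with Wt1 at 8.59 to 29.3 CPM and Star at 3.82 to 6.20 CPM, while Insl3, Hsd3b1 and Cyp17a1 were at 0 in both libraries of some groups. In bulk RNA, a change in the number of cells of a type and a change of RNA per cell cannot be told apart.

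Of the 8 genes, 6 lie in pairs of close neighbours (mm10, GENCODE M21). Dcn (chr10:97479609-97518143, plus strand) and Lum (chr10:97565128-97572703, plus strand) are 46984 bases apart. Aspn (chr13:49544443-49567565, plus strand) and Ogn (chr13:49608046-49624501, plus strand) are 40480 bases apart. Prelp (chr1:133910304-133921414, minus strand) and Fmod (chr1:134037254-134048277, plus strand) are 115839 bases apart. Bgn is at chrX:73483602-73495933 on the plus strand and Mgp at chr6:136872435-136875823 on the minus strand. Other family members lie in the same clusters and were hardly read here. Kera, next to Lum, reached at most 0.61 CPM, Omd, between Aspn and Ogn, at most 0.45 CPM, and Optc, next to Prelp, at most 3.20 CPM. RefSeq promoter entries (GRCm38.p6, 250 bases before to 50 bases after the annotated start) were matched for 5 members. The pairs Aspn and Ogn, and Prelp and Fmod, are shown because the neighbours varied together over the libraries, as given further on. A set of 5 short motifs was sought on both strands: ACGTG and GCGTG, the core of the HIF binding element, TGANTCA (AP-1), TATAAA and GGGCGG (GC box). Capitals mark the matches, which are descriptions of letters only.
Aspn: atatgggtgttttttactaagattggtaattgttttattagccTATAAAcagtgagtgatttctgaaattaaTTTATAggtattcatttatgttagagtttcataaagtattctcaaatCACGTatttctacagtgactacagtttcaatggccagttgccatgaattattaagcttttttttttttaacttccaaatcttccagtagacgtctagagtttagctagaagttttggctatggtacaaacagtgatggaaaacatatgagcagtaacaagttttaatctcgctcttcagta
Ogn: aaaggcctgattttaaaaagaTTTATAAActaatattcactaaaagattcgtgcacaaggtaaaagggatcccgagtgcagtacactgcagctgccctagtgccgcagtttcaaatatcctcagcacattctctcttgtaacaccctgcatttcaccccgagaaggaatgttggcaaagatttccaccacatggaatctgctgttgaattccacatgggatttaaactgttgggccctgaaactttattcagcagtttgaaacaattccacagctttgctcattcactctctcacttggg
Prelp: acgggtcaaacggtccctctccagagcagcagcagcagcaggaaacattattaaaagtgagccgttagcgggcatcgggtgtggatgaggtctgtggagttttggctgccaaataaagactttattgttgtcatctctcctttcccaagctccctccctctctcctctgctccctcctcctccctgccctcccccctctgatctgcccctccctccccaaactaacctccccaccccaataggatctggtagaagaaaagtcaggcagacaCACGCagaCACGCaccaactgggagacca
Fmod: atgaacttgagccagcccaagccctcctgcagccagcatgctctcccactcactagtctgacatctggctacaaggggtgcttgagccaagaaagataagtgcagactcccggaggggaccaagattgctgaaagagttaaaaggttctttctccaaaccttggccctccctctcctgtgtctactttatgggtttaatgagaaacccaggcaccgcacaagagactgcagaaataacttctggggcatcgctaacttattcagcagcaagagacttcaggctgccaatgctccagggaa
The Aspn window (chr13:49544193-49544492, plus strand) had an ACGTG match starting 131 bases before the start and TATAAA matches 207 and 178 bases before it. The Ogn window (chr13:49607765-49608064, plus strand) had overlapping TATAAA matches 229 and 227 bases before the start, on opposite strands. In the Prelp window (chr1:133921352-133921651, minus strand) GCGTG matched on the reverse strand 21 and 29 bases after the start. None of the 5 motifs was in the Fmod window (chr1:134037004-134037303, plus strand). The Bgn window (chrX:73483351-73483650, plus strand), which is not printed, held 1 GCGTG and 3 GGGCGG matches, of which 2 overlapped. Among 32851 promoter windows of the same length, ACGTG was in 19.6%, GCGTG in 32.4%, TGANTCA in 7.81%, TATAAA in 13.6% and GGGCGG in 35.7%. GC content of the windows differed, from 31% in Aspn and 42.3% in Ogn to 51% in Fmod, 55.3% in Prelp and 63.7% in Bgn.

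Bgn carried most of the signal of the 8 genes. It made up 60.6% to 81.2% of their summed CPM over the 8 group means. That sum was lowest in DBA/2 at 1% oxygen (409 ± 42.4 CPM; SD, n = 2) and highest in the libraries labelled Hif1a KO at 1% (4961 ± 177 CPM). Per kilobase of annotated exon, Bgn also led in every group, from 54.5 ± 5.39 CPM per kb in DBA/2 at 1% to 536 ± 18.3 in the labelled Hif1a KO at 1%. Exon length was the union over all annotated transcripts, which understates genes whose long isoforms are minor. The gene behind Bgn differed between oxygen levels and among the groups at 1%. At 20% Mgp was next in each of the 3 groups, with 27.3 ± 3.78 CPM per kb in DBA/2, 48.1 ± 4.47 in Hif1a wild type and 85.8 ± 10.02 in the labelled Hif1a KO. At 1% Dcn was next to Bgn in DBA/2, with 7.57 ± 1.01 CPM per kb, ahead of Mgp with 3.67 ± 0.33. Dcn was also next in Hif1a wild type and in both Top1mt groups. In the labelled Hif1a KO at 1% Prelp was next, with 148 ± 4.31 CPM per kb, where Dcn had 115 ± 5.23. In Hif1a wild type at 1% Mgp was last, with 6.85 ± 1.35 CPM per kb, where Fmod had 6.92 ± 0.28 and Dcn 76.3 ± 1.45. Mgp was next to last, ahead of Fmod, in the labelled Hif1a KO at 1% and in both Top1mt groups.

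**Figure D1:**
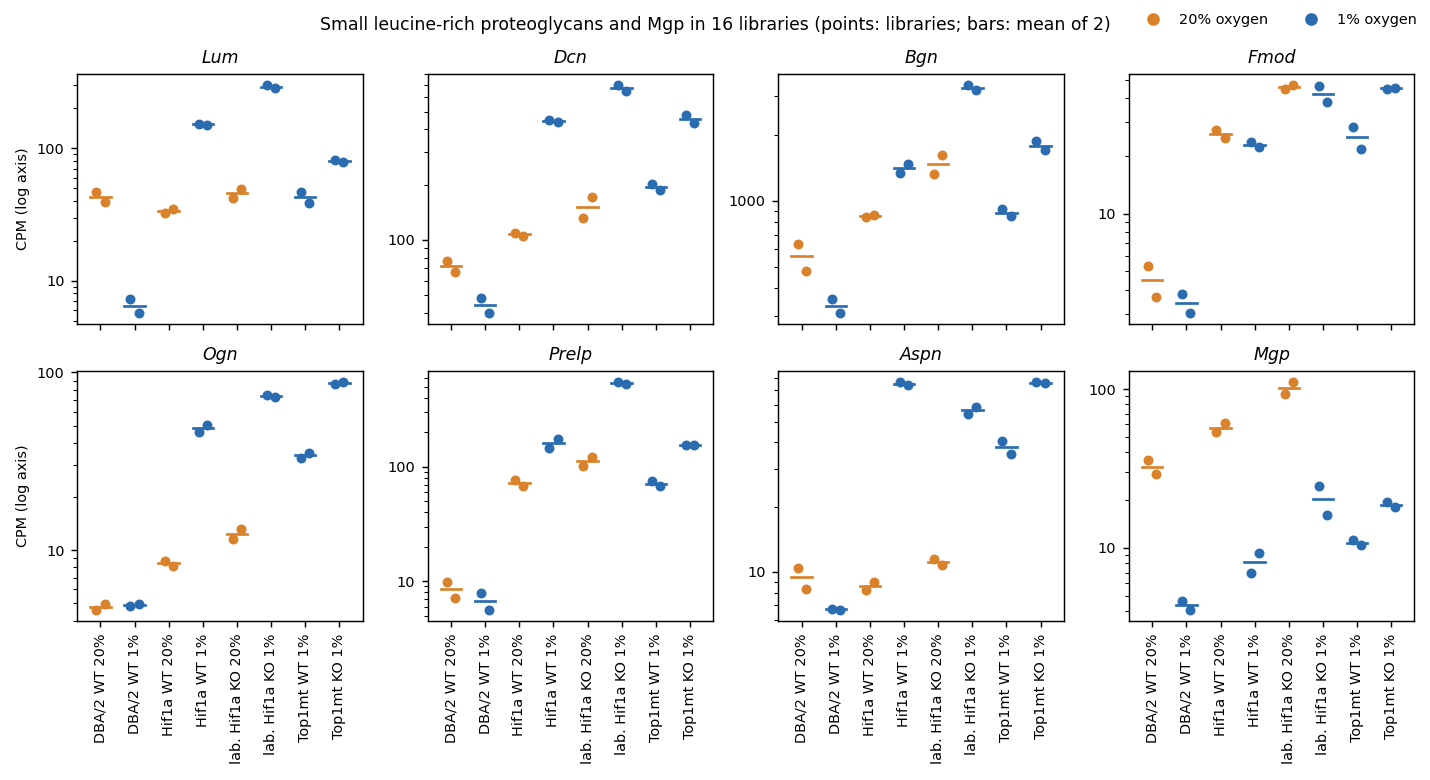
CPM of each gene (log axis) in the 2 libraries of every group, as points, with a bar at their mean. Orange is 20% oxygen and blue 1% oxygen. All 10 Mgp points at 1% lie below all 6 at 20%. Dcn, Lum, Ogn, Aspn, Bgn and Prelp are higher at 1% than at 20% in both genotypes of the Hif1a line but not in DBA/2 (lab.: labelled).

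In DBA/2 wild type cells, Lum and Mgp were far lower at 1% oxygen, Dcn and Bgn were moderately lower, and Ogn was level. These contrasts, and those of Hif1a wild type cells, were in view when the genes were chosen, so they are described without a test. Lum, a keratan sulfate proteoglycan that regulates collagen fibril assembly, was at 46.8 and 39.5 CPM at 20% and at 7.23 and 5.71 CPM at 1%. Both libraries at 1% were below both at 20%, with a log2 fold change of -2.56 ± 0.10 (log2 of CPM + 1, limma standard error, as for all fold changes here). Mgp was at 35.6 and 29.3 CPM at 20% and at 4.64 and 4.08 CPM at 1%. The groups did not overlap, and the log2 fold change was -2.64 ± 0.15. Dcn, which binds collagen and TGF-beta, had 76.9 and 66.9 CPM at 20% and 48.3 and 40.0 CPM at 1%. Bgn, its closest relative and a ligand of Toll-like receptors when released, had 636 and 480 CPM at 20% and 356 and 309 CPM at 1%. Neither gene's groups overlapped, and the log2 fold changes were -0.69 ± 0.10 for Dcn and -0.74 ± 0.10 for Bgn. Aspn, a decorin relative with an aspartate-rich stretch, went from 10.5 and 8.36 CPM to 6.74 and 6.67 CPM, again without overlap (-0.43 ± 0.09). Fmod, Prelp and Ogn had overlapping libraries in DBA/2, at log2 fold changes of -0.31 ± 0.14, -0.29 ± 0.12 and 0.02 ± 0.08. So 5 of 8 genes were lower and 0 higher in both libraries at 1%. Over all genes tested the same held for 36.5% lower and 44.8% higher. The median log2 fold change was -0.56 for the 8 genes and 0.04 for all 14841.

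Fibroblast markers in DBA/2 leaned lower at 1%, with a median log2 fold change of -0.22 beside 0.04 for all genes. Their sum overlapped between oxygen levels, and of the 26, 3 were called higher and 13 lower at 1%, where 31.8% of all genes were called higher and 25.5% lower. The collagen crosslinking enzyme Lox, which is part of the sum, went the other way to Lum. It rose from a mean of 178 to 734 CPM, a log2 fold change of 2.05 ± 0.10. The collagen VI chain Col6a3 fell by 1.61 ± 0.10 and Col3a1, the chain of type III collagen, fell by 0.70 ± 0.11. Smooth muscle and myofibroblast markers were called higher for 7 of 9 genes and lower for 1. Their part in the values of the 8 genes was not tested.

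In Hif1a wild type cells Lum, Dcn, Bgn and Aspn went the opposite way to DBA/2, while Mgp was lower at 1% as in DBA/2. Ogn and Prelp, whose libraries overlapped in DBA/2, were higher at 1%, and Fmod was slightly lower. Dcn was at 109 and 105 CPM at 20% and at 451 and 439 CPM at 1%, a log2 fold change of 2.05 ± 0.10. Lum was at 32.3 and 35.1 CPM at 20% and at 153 and 150 CPM at 1% (2.14 ± 0.10). In both genes each library at 1% was far above each at 20%. Aspn was at 8.21 and 8.94 CPM at 20% and at 76.0 and 73.7 CPM at 1%, which was 8.73-fold higher and the widest fold of the 8 genes in this contrast (log2 fold change 2.99 ± 0.09). Ogn, also called mimecan, which takes part in fibril assembly, was at 8.70 and 8.17 CPM at 20% and at 46.3 and 50.5 CPM at 1% (2.39 ± 0.08). Both neighbours on chromosome 13 were low at 20% and several-fold higher in each library at 1%. Prelp, which links basement membrane to the matrix below, was at 76.0 and 67.9 CPM at 20% and at 147 and 175 CPM at 1% (1.15 ± 0.12). Bgn was at 846 and 861 CPM at 20% and at 1335 and 1468 CPM at 1% (0.71 ± 0.10). Fmod, which modulates fibril diameter and crosslinking, was at 27.3 and 24.9 CPM at 20% and at 23.5 and 22.2 CPM at 1%. Its libraries did not overlap, but the log2 fold change of -0.18 ± 0.14 was close to its error. Mgp was at 53.4 and 60.9 CPM at 20% and at 7.0 and 9.26 CPM at 1%, 7.03-fold lower (-2.68 ± 0.15). Of the 8 genes, 6 were higher and 2 lower without overlap, beside 26.6% and 47.4% of all genes. The median was 1.60 for the 8 genes and -0.09 for all genes. Fibroblast markers moved with them: 19 of 26 were called higher and 1 lower, beside 18.4% and 34.6% of all genes. Of the 16 germ cell markers 2 were called higher and 11 lower, with a median of -0.37.

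Set beside the DBA/2 values, the Hif1a wild type response was larger by 4.70 ± 0.14 log2 units for Lum, 3.42 ± 0.13 for Aspn, 2.74 ± 0.14 for Dcn and 2.36 ± 0.12 for Ogn. For Mgp the difference was -0.04 ± 0.21 and for Fmod 0.13 ± 0.19, both within their error. The Mgp difference was 0.24 by edgeR and 0.22 by DESeq2 on the recovered reads. The lines differ in strain, in the time mark of their library names and in feeder marker level, and these cannot be told apart.

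In the libraries labelled Hif1a KO, 6 of the 8 genes were higher at 1% oxygen and Mgp was lower. The 4 comparisons within the Hif1a line share libraries, so their values are not independent of each other. The genes were chosen on measured values, so adjusted p-values of the members, here and below, are descriptions and no independent support. The comparisons of Hif1a genotypes also reuse the wild type libraries that were in view. Lum was at 42.3 and 49.7 CPM at 20% and at 299 and 285 CPM at 1%, 6.35-fold higher (log2 fold change 2.64 ± 0.10, limma adjusted p = 1.9e-14). Ogn rose from 11.6 and 13.1 to 74.3 and 72.8 CPM, 5.96-fold (2.48 ± 0.08, adjusted p = 2.9e-15). Prelp rose from 102 and 122 to 548 and 525 CPM, 4.79-fold (2.25 ± 0.12, adjusted p = 2.5e-12). In these genes every library at 1% was above every library at 20%. Aspn rose from 11.5 and 10.8 to 54.3 and 58.5 CPM (2.24 ± 0.09, adjusted p = 6.0e-14). Dcn rose from 131 and 170 to 694 and 651 CPM (2.16 ± 0.10, adjusted p = 1.4e-13). Bgn rose from 1324 and 1612 to 3347 and 3189 CPM, the smallest rise of the 6 (1.16 ± 0.10, adjusted p = 2.6e-09). Mgp fell from 93.5 and 110 to 24.4 and 16 CPM, 5.04-fold (log2 fold change -2.30 ± 0.15, adjusted p = 2.9e-11). Fmod had 44.6 and 46.7 CPM at 20% and 46.4 and 38.1 CPM at 1%. Its libraries overlapped and it did not pass the test (-0.12 ± 0.14, adjusted p = 0.43). The counts of 6 higher and 1 lower stand beside 25.2% and 54.7% of all genes, and the medians were 2.20 and -0.29. The median of all genes lay at -0.29 in these CPM. It was -0.01 with TMM scaling and 0.02 with median-of-ratios scaling, and the share of calls that were higher went from 31.6% to 50.2% and 53.2%. In this contrast 25 of 26 fibroblast markers were called higher and 16 of 16 germ cell markers lower, and the part of this shift in the values of the 8 genes was not tested.

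In CPM without further scaling, the response of the labelled Hif1a KO was close to that of the wild type for Ogn, Dcn and Fmod. The differences were 0.10 ± 0.12, 0.11 ± 0.14 and 0.07 ± 0.19. The labelled KO response was larger for Prelp, by 1.11 ± 0.18, and smaller for Aspn, by -0.75 ± 0.13. For Lum the difference was 0.51 ± 0.14, for Bgn 0.45 ± 0.14 and for Mgp 0.38 ± 0.21. These are descriptions, with no test. The median of all genes was itself at -0.17 on this scale, and was 0.03 with TMM scaling and 0.07 with median-of-ratios scaling. The median of the 8 genes went from 0.24 to 0.47 and 0.52, so the closeness depends on the scaling.

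**Figure D2:**
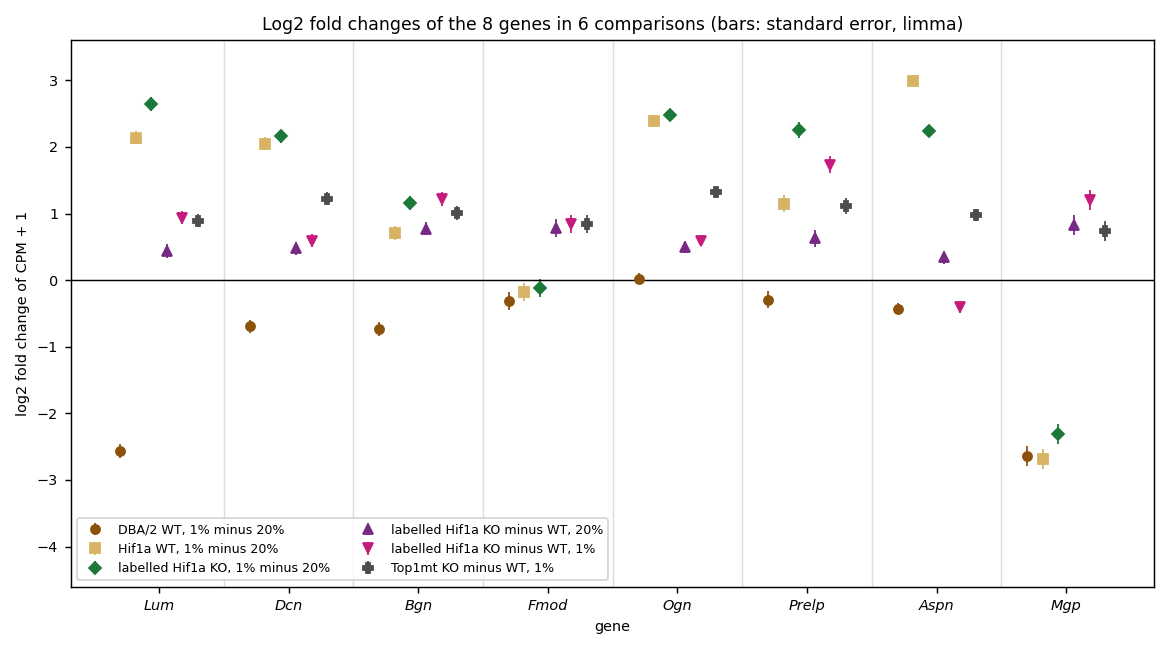
Log2 fold change of CPM + 1 for each gene in 6 comparisons, with limma standard errors as bars and a line at 0. Mgp lies between -2.68 and -2.30 in all 3 oxygen comparisons and above 0 in all 3 KO comparisons, while Lum lies at -2.56 in DBA/2 and above 2 in both Hif1a groups.

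At 20% oxygen, all 8 genes were higher in the labelled Hif1a KO than in wild type of the same line, by 1.30-fold to 1.78-fold. Mgp had the widest difference, from 53.4 and 60.9 CPM in wild type to 93.5 and 110 CPM (log2 fold change 0.82 ± 0.15, limma adjusted p = 0.00068). Fmod rose from 27.3 and 24.9 to 44.6 and 46.7 CPM (0.78 ± 0.14, adjusted p = 0.00041) and Bgn from 846 and 861 to 1324 and 1612 CPM (0.77 ± 0.10, adjusted p = 5.0e-05). Prelp (0.63 ± 0.12), Ogn (0.50 ± 0.08) and Dcn (0.48 ± 0.10) followed. Lum (0.43 ± 0.10, adjusted p = 0.0047) and Aspn (0.34 ± 0.09, adjusted p = 0.013) had the smallest differences. No gene's libraries overlapped. Of all genes, 12.9% were called higher and 9.55% lower, and the medians were 0.56 for the 8 genes and -0.03 for all. Some of these calls rest on single libraries: without replicate 2 of the labelled KO the adjusted p was 0.089 for Lum and 0.051 for Dcn, without replicate 1 of the labelled KO it was 0.069 for Aspn, and without wild type replicate 1 it was 0.067 for Lum and 0.12 for Aspn. Fibroblast markers were called higher for 23 of 26 genes and lower for 0, with a median of 0.55, while 12 of 16 germ cell markers were called lower.

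At 1% oxygen, 7 of the 8 genes were higher in the labelled Hif1a KO and Aspn was lower. Prelp stood out by its size, from 147 and 175 CPM in wild type to 548 and 525 CPM, 3.33-fold (log2 fold change 1.73 ± 0.12, limma adjusted p = 1.7e-10). Bgn rose from 1335 and 1468 to 3347 and 3189 CPM (1.22 ± 0.10, adjusted p = 1.6e-09), and Mgp from 7.0 and 9.26 to 24.4 and 16 CPM (1.20 ± 0.15, adjusted p = 4.8e-07). Mgp in these 1% libraries was still below every 20% library of either genotype. Lum (0.94 ± 0.10), Fmod (0.85 ± 0.14), Ogn (0.59 ± 0.08) and Dcn (0.59 ± 0.10) were also called higher. Aspn fell from 76.0 and 73.7 to 54.3 and 58.5 CPM (-0.40 ± 0.09, adjusted p = 0.00062). Its libraries did not overlap in CPM, but the call was lost with TMM scaling (-0.16, adjusted p = 0.13), with median-of-ratios scaling (-0.12, adjusted p = 0.25), with edgeR (-0.15, adjusted p = 0.059) and with DESeq2 (-0.12, adjusted p = 0.25). Of all genes, 28.3% were called higher and 49.1% lower. The medians were 0.89 for the 8 genes and -0.21 for all, and the latter was -0.0039 under TMM. All 26 fibroblast markers were called higher, with a median of 0.96, and all 16 germ cell markers lower. All 9 smooth muscle and myofibroblast markers were called higher, with a median of 1.5, and their sum was 1028 to 1039 CPM against 266 to 343 CPM in wild type. The part of these in the values of the 8 genes was not tested.

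In the Top1mt line at 1% oxygen, all 8 genes were higher in the KO, by 1.74-fold to 2.54-fold. Ogn rose from 33.1 and 35.2 to 85.6 and 88.0 CPM, 2.54-fold (log2 fold change 1.32 ± 0.08, limma adjusted p = 1.6e-10). Dcn rose from 202 and 187 to 481 and 431 CPM (1.22 ± 0.10, adjusted p = 2.8e-09), and Prelp from 74.5 and 67.9 to 155 and 155 CPM (1.11 ± 0.12, adjusted p = 2.7e-07). No library of the KO overlapped the wild type in any of the 8 genes. Bgn had 916 and 849 CPM in wild type and 1862 and 1703 in the KO (1.01 ± 0.10), Aspn 40.4 and 35.4 against 76.1 and 75.3 CPM (0.98 ± 0.09), and Lum 47.1 and 38.4 against 81.4 and 78.6 CPM (0.90 ± 0.10). Fmod rose from 28.3 and 21.7 to 44.9 and 45.3 CPM (0.84 ± 0.14). Mgp had the smallest rise, from 11.2 and 10.4 to 19.5 and 18 CPM (0.75 ± 0.15, adjusted p = 0.00028). Calls over all genes were 25.2% higher and 33.2% lower, with medians of 1.00 for the 8 genes and -0.04 for all. The same contrast had 26 of 26 fibroblast markers higher (median 0.92), 15 of 16 germ cell markers lower, and a smooth muscle marker sum of 2786 to 2854 CPM in the KO against 738 to 766 CPM in wild type. The part of these in the rise of the 8 genes was not tested.

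Because the summed fibroblast markers differed between groups, each gene was also expressed per 1000 CPM of that sum. On this scale Mgp was lower at 1% in DBA/2 and in both Hif1a genotypes, the groups sampled at both oxygen levels. It was 3.45 to 5.08 in the 6 libraries at 20% and 0.22 to 0.51 in the 10 libraries at 1%. In CPM, Mgp was 7.44-fold lower at 1% in DBA/2, 7.03-fold in Hif1a wild type and 5.04-fold in the labelled Hif1a KO. Per 1000 CPM of the sum, the 1% mean was 6.94-fold lower in DBA/2, 18.5-fold in Hif1a wild type and 17.4-fold in the labelled KO. With collagens left out of the sum, or with the collagen fibril partners as the sum, these folds were 8.33 or 6.69, 13.8 or 22.4, and 13.7 or 20.5. Bgn was also lower at 1%, at 58.5 to 74.2 per 1000 at 20% and 32.7 to 47.8 at 1%. Its means were 1.56-fold, 1.59-fold and 1.55-fold lower at 1% in DBA/2, Hif1a wild type and the labelled Hif1a KO, although its CPM was lower in DBA/2 and higher in the Hif1a line. The likeness of these 3 folds held for this sum only: they were 1.87, 1.19 and 1.21 without collagens and 1.5, 1.92 and 1.82 with the collagen fibril partners. The other 6 genes overlapped between oxygen levels over all libraries. The Top1mt line has no 20% libraries, so its values at 1% stand without their own control.

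Within lines, the remaining genes kept part of their pattern per fibroblast marker. Lum went from 4.67 to 0.75 per 1000 in DBA/2 and from 2.49 to 4.32 in Hif1a wild type. In the labelled Hif1a KO it went from 2.29 to 4.22, and it was 1.65 in both Top1mt groups. Aspn went from 0.63 to 2.13 in Hif1a wild type and from 0.56 to 0.82 in the labelled Hif1a KO, so that at 1% it was 2.61-fold lower in the labelled KO. Prelp at 1% was 1.71-fold higher in the labelled KO than in wild type. With collagens left out of the sum, or with the collagen fibril partners, these folds were 2.93 or 2.48 for Aspn. For Prelp they were 1.52 or 1.80. Fmod went from 1.94 to 0.65 in Hif1a wild type and from 2.29 to 0.61 in the labelled KO, where its CPM had hardly differed. The libraries of Hif1a wild type at 1% lay apart, at 4.88 and 3.77 for Lum, 2.42 and 1.85 for Aspn and 0.75 and 0.56 for Fmod. In the Top1mt comparison the ratio overlapped for Lum, Fmod and Mgp, and was 1.36-fold higher in the KO for Ogn and 1.25-fold for Dcn. With collagens left out of the sum, Mgp was lower in the KO without overlap, while Bgn and Aspn overlapped.

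**Figure D3:**
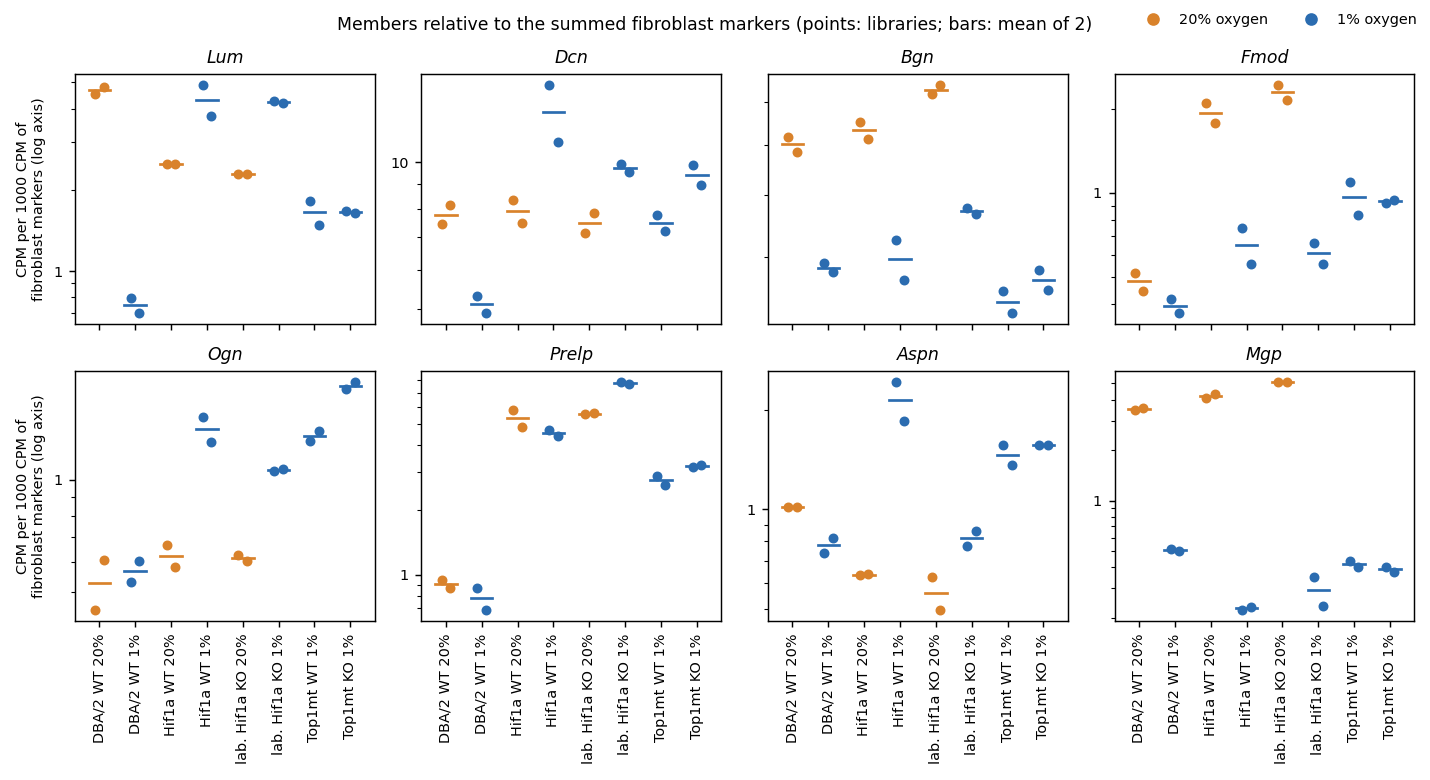
CPM of each gene per 1000 CPM of 26 summed fibroblast markers (log axis), 2 libraries per group as points and a bar at their mean. Mgp and Bgn are lower in all 10 libraries at 1% oxygen (blue) than in all 6 at 20% (orange), and the other 6 genes overlap.

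Across the 16 libraries, which share lines, feeders and oxygen levels, the proteoglycans varied with the fibroblast sum. Mgp did not when both oxygen levels were pooled. Per 1000 CPM of that sum, Mgp was 3.45 to 5.08 at 20% and 0.22 to 0.51 at 1%. At 20% its group means of 32.4, 57.1 and 102 CPM went with sums of 9266, 13525 and 20070 CPM. At 1% the order was less regular, with Hif1a wild type (8.13 CPM, sum 35641) below Top1mt wild type (10.8 CPM, sum 25930). Pearson's r of log2(CPM + 1) with the log2 sum was 0.98 for Dcn, 0.97 for Ogn, 0.93 for Bgn, 0.92 for Prelp, 0.91 for Aspn, 0.85 for Lum, 0.79 for Fmod and -0.05 for Mgp. Among the genes themselves, the neighbours Ogn and Aspn had r = 0.97, Fmod and Prelp 0.92, and Lum and Dcn 0.91. Pairs on different chromosomes were as close, with 0.96 for Bgn and Prelp and 0.96 for Dcn and Ogn. Mgp had r between -0.32, with Aspn, and 0.43, with Fmod. Of 11789 genes with a mean of at least 5 CPM, the ones most like each member were searched by the same r. For Dcn they were Pdgfrl, Col1a2 and Col5a2 (0.99 each), for Ogn the matricellular gene Postn, Pamr1 and Gpc6 (0.99 each), and for Aspn Adamtsl1 (0.98), Postn (0.97) and the collagen receptor subunit Itga11 (0.96). For Bgn they were Pde4b, Antxr1 and Serpine2 (0.99 each), for Lum Olfml3 and Serpina3n (0.97 each), and for Prelp Tep1, Cemip and Srpx2 (0.98 each). Fmod was less closely matched, by Clca3a1, Crat and Lrrk1 (0.95 each). For Mgp no collagen or other fibroblast marker came first: Pstpip1 (0.94), Stk36 (0.93) and Oscp1 (0.92) did, each at 23.0 CPM or below in every library.

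The order of the groups differed between genes. The labelled Hif1a KO at 1% was highest for Lum, Dcn, Bgn and Prelp, and Top1mt KO was highest for Ogn and Aspn. For Fmod and Mgp the labelled Hif1a KO at 20% was highest. DBA/2 at 1% was lowest for every gene except Ogn, where DBA/2 at 20% was lowest. The ratio of the highest to the lowest group mean was 79.4 for Prelp, 45.1 for Lum, 23.4 for Mgp, 18.1 for Ogn, 15.2 for Dcn, 13.4 for Fmod, 11.3 for Aspn and 9.83 for Bgn. Neighbours in the order overlapped most often for Fmod, in 5 of 7 steps, followed by Prelp in 3 and by Lum, Bgn and Aspn in 2 each. They overlapped once for Dcn (Hif1a wild type and Top1mt KO, both at 1%), once for Ogn (DBA/2 at both oxygen levels) and once for Mgp (Top1mt KO and labelled Hif1a KO, both at 1%).

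The genes that build, modify and partner these proteoglycans were taken from lists chosen with earlier results known, and overlap in part with the fibroblast markers. Their counts are to be read against the shares of all genes called higher and lower: 31.8% and 25.5% in DBA/2, 18.4% and 34.6% in Hif1a wild type, 25.2% and 54.7% in the labelled Hif1a KO between oxygen levels, 12.9% and 9.55% between Hif1a genotypes at 20%, 28.3% and 49.1% at 1%, and 25.2% and 33.2% for Top1mt. Of 11 other family members 8 were tested. In the labelled Hif1a KO, 4 were called higher at 1% than at 20% and 2 lower, with Podnl1 up by 1.80 ± 0.18 and Podn by 1.42 ± 0.14 on the log2 scale and Nyx at -1.16 ± 0.19. In the Top1mt KO 4 were higher and 0 lower, among them Podnl1 (1.19 ± 0.18), Podn (1.15 ± 0.14) and Tsku (0.67 ± 0.09). In DBA/2 the counts were 2 and 1, both below the shares of all genes, and in Hif1a wild type 3 and 2.

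Of 30 genes for assembly of the sugar chains, 18 were called higher and 4 lower at 1% in the labelled Hif1a KO, 11 and 7 in Hif1a wild type, and 13 and 4 in DBA/2, beside 31.8% and 25.5% of all genes there. Csgalnact1, which starts the chondroitin chain, had the signs of Dcn and Lum: -1.19 ± 0.11 in DBA/2, 1.34 ± 0.11 in Hif1a wild type and 1.5 ± 0.11 in the labelled KO. Dse, the epimerase that turns chondroitin into dermatan sulfate, rose by 0.96 ± 0.11 and 1.26 ± 0.11 in the latter groups. Chst1, a keratan sulfate sulfotransferase, rose by 1.69 ± 0.11 in DBA/2, where Lum was lower. In the KO comparisons 12 were higher and 1 lower for Hif1a at 20%, 19 and 3 at 1%, and 16 and 1 for Top1mt. Papss2, which makes the sulfate donor, was higher by 1.54 ± 0.18 in the labelled Hif1a KO at 1%.

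Of 9 tested genes for Gla proteins, the vitamin K cycle and BMP partners of Mgp, 7 were called higher at 1% and 0 lower in the labelled Hif1a KO, and 6 and 0 in Hif1a wild type. The Gla proteins Gas6 and Pros1 rose by 1.04 ± 0.07 and 0.98 ± 0.10 in Hif1a wild type and by 1.74 ± 0.07 and 1.74 ± 0.10 in the labelled KO, opposite in sign to Mgp. In DBA/2, 3 were higher and 4 lower, and Pros1 fell by 0.72 ± 0.10. Against wild type, the labelled Hif1a KO had 6 higher and 0 lower at 20% and 8 and 1 at 1%. The Top1mt KO had 6 and 0, with the BMP receptor gene Acvrl1 up by 1.15 ± 0.11.

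Of 16 collagen fibril partners, 14 were called higher at 1% in Hif1a wild type and 15 in the labelled KO, with Col12a1 up by 2.97 ± 0.08 and 3.09 ± 0.08. In DBA/2 the calls were 5 higher and 6 lower. Of 11 genes for TGF-beta ligands, receptors and latency, 6 were higher and 2 lower in Hif1a wild type, 9 and 2 in the labelled KO, and 1 and 6 in DBA/2. The TGF-beta induced gene Tgfbi had -1.25 ± 0.12 in DBA/2, 1.29 ± 0.12 in Hif1a wild type and 1.92 ± 0.12 in the labelled KO, the same order of signs as Dcn. Of 15 matrix cleavage genes, 13 were higher and 1 lower at 1% in each Hif1a group, led by the aggrecanase Adamts5 (3.0 ± 0.09 in wild type, 3.51 ± 0.09 in the labelled KO). In DBA/2 the counts were 5 and 6, and the collagenase Mmp13 fell by 2.09 ± 0.13. For Top1mt, 14 of 16 fibril partners, 9 of 11 TGF-beta genes and 14 of 15 cleavage genes were higher in the KO, and 0, 1 and 0 were lower.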

How the data were processed

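RNA of 16 libraries (TruSeq stranded mRNA, per the labels' protocols) was deposited by the authors as 1 table of CPM for 21924 protein-coding genes. Per the submitters' processing notes, the tools were cutadapt 1.16, STAR 2.6.0c, HTSeq 0.11.2 and DESeq2 1.22.2 with mm10 as the build. How each was used is not stated there. Reads were recovered from the steps of the CPM values, of which 100% came out whole within 0.01 read, and each library totals 1000000 CPM. No replicate pair was the same within counting noise.

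Genes with at least 1 CPM in at least 2 libraries (14841) were fitted with limma 3.58.1 (R 4.3.3, trended empirical Bayes) on log2(CPM + 1), 1 mean per group over all 16 libraries, and p-values were adjusted by Benjamini-Hochberg over all genes, with calls at 0.05. For the members, the oxygen contrasts of the DBA/2 and Hif1a wild type cells and the differences between responses are described without a test. Calls of other genes in those contrasts come from the same fit and are descriptions too, since the lists were chosen with results known. The limma fit was also run on simulated counts in which few genes changed, in 1 group. That run cannot speak for contrasts such as those here, where many genes were called. Members and gene lists were chosen with earlier results of these data known, so adjusted p-values of the members are descriptive in every contrast. All members are named, with the 3 genes most like each over the libraries, up to 4 called genes per list by size of change, and the targeted genes; 1 gene that this rule names is not reported here. Alternatives were TMM and median-of-ratios scaling, edgeR 4.0.16 and DESeq2 1.42.0 on recovered reads, pseudocounts of 0.25 and 4, no filter and a filter at 5 CPM, the compared groups alone, a replicate block, leaving out each library, and other sums as denominator. Promoter letters are from RefSeq (GRCm38.p6), positions from GENCODE M21, to which 21894 symbols matched once and 30 more than once. Libraries numbered alike did not deviate together in every pair, so replicate numbers were not used as pairs. Intervals of counts were not needed, as no member was near the floor of 3 reads (0.117 to 0.251 CPM).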

Additional observations from a re-analysis of the deposited data

Results flagged for a closer look

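Each value here is a difference between responses to 1% oxygen, on the log2 scale. Between lines, the libraries of the 2 oxygen levels parted in opposite directions. In the last item, those of the 2 genotypes did so. None of these differences was tested. Lum was lower at 1% in both DBA/2 libraries and higher in both Hif1a wild type libraries, and its response differed by 4.70. Dcn differed by 2.74, Bgn by 1.45 and Aspn by 3.42 between the same lines, again with opposite directions in every library. In the Hif1a line, Aspn was higher at 1% than at 20% in both genotypes. It was higher in both libraries of the labelled KO than in wild type at 20% oxygen and lower in both at 1%. The lower call at 1% was lost with TMM scaling (-0.16), median-of-ratios scaling (-0.12), edgeR and DESeq2. The higher call at 20% was lost without replicate 1 of the labelled KO or of the wild type. The response of the labelled KO minus that of the wild type was -0.75.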

How the results depend on the processing

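Depth was no limit for the members, since each had at least 67 reads in every library, but 2 libraries a group limit every error given. Of 112 recomputed counts of members called, 108 stayed within 1.5 times. Of 960 recomputed fold changes of single members, 806 stayed the same. In the tested contrasts this meant the same direction and the same call, with no limit on size. In the others it meant a value within 1 fitted SD of the main one. Values per fibroblast marker sum depended more on the choice of sum: of 96 recomputed log2 changes with another sum, 46 stayed the same, 49 moved and 1 reversed. The exception among the counts was members called lower in the labelled Hif1a KO against wild type at 1%, which was 1 and became 0 with TMM scaling, median-of-ratios scaling, edgeR and DESeq2. The median in Hif1a wild type was 1.71 with edgeR. The median of the labelled KO response minus the wild type response, 0.24, was 0.47 with TMM, 0.52 with median-of-ratios, 0.48 with edgeR and 0.55 with DESeq2, and 0.085 to 0.40 with single libraries left out. The median difference between the responses of Hif1a wild type and DBA/2, 1.91, was 2.03, 2.02, 2.13 and 2.12 in the same order and 1.75 with a pseudocount of 4. Leaving out single libraries moved the DBA/2 median between -0.68 and -0.41.

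Some signs turned. With single libraries left out, the difference between the Hif1a genotypes' responses ran from -0.073 to 0.30 for Dcn and from -0.073 to 0.20 for Fmod. That between Hif1a wild type and DBA/2 ran from -0.097 to 0.35 for Fmod and from -0.22 to 0.14 for Mgp, which was 0.22 with DESeq2 and 0.24 with edgeR. Prelp per fibroblast marker in Hif1a wild type went from -0.23 to 0.20 on the log2 scale when collagens were left out of the sum, and its libraries did not overlap under either sum. The causes were not tested.

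Over all genes, DESeq2 called 4726 lower against 8118 by limma in the labelled KO at 1% against 20%, 4464 against 7283 in the labelled KO against wild type at 1%, 821 against 1417 at 20%, and 3060 against 5140 in Hif1a wild type, and median-of-ratios scaling called 5947 higher against 3747 in the first. The share of calls that were higher went from 36.6% to 51.8% (TMM) and 54.3% (median-of-ratios) for the labelled KO against wild type at 1% and from 34.7% to 50.1% and 49.8% in Hif1a wild type. Leaving out wild type replicate 1 left 423 lower calls at 20%, without wild type replicate 2 there were 592, and without replicate 2 of the labelled KO 509. Higher calls there were 1085, 1368 and 1065 against 1912.

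Deviations of libraries with the same replicate number correlated at 0.15 in DBA/2, 0.07 in Top1mt and -0.06 to 0.27 over the 6 pairings of the Hif1a groups. With the replicate number as a block, no call of a member changed, and the labelled KO against wild type at 20% had 2072 higher and 1732 lower calls over all genes.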
